A study of Setaria viridis with 13 samples.

Results

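In the C4 grass Setaria viridis (green millet), 98 of 35471 genes were abundant in the root and still present at a lower level somewhere above ground. They were chosen by their level alone, as genes with at least 100 FPKM (fragments per kilobase of transcript, normalised to each sample's total) in the bulk root that was at least 4 but under 20 times the highest level in the other 12 samples. Because the rule already sets the root against every other sample, the root excess of these genes is a description and was not tested. By the same rule each of them reached at least 5 FPKM in at least 1 sample other than the root.

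The plants were all wild type, of accession A10, and grew in hydroponics after germination on wet filter paper. The root sample held bulk roots at 15 days after germination (stage V5), the same age as the V5 bulk shoots and the inflorescence meristem. The remaining samples were the coleoptile at 3 days (VE), then at 10 days (V3) bulk shoots, the vegetative meristem and the lower section, mid section, base and tip of leaf 3. Stage R gave bulk shoots at 20 days and panicles at 22 days, before anthesis, and 25 days, after it. Each sample had 3 biological replicates from plants grown at different times, merged in a single deposited column, so replicate error is unknown and samples were compared by size only, with no test. Depth is unknown, since the values carry no read counts. In bulk tissue, fewer cells of a type and less RNA per cell cannot be told apart.

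Roots take up water and mineral ions, anchor the plant and supply the shoot through the xylem. Genes known for their root levels include transporters of ions and water, defence genes and genes that build specialised cell walls. Grass meristems and the lower parts of young leaves hold dividing and expanding cells, while the leaf tip is the oldest part of the blade and the coleoptile is a short-lived sheath. The files pair no gene ID with a name, and none of the IDs matched the 34587 genes of the RefSeq table for Setaria_viridis_v4.0, so the genes are given by ID, with no role and no coordinates. For the same reason the tissues could not be checked against defining marker genes.

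Root levels of the 98 genes ran from 100.1 to 13215 FPKM, with a median of 188. In 51 of them the root level was under 200 FPKM, and in 5 it was at least 1000. With 1 transcript counted per gene, they together held 6.52% of the summed FPKM of all genes in the root. Their share elsewhere was 0.192% (coleoptile and V3 bulk shoot) to 0.455% (vegetative meristem). The 2 most abundant genes supplied 46.3% of the root sum of the 98 genes. The root exceeded the highest other sample by a median of 7.75 times (quartiles 4.94 and 11.2), and by under 10 times in 67 of the 98 genes.

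At the bound of 100 FPKM, Si023031m.g lay just inside at 100.1 FPKM and Si014516m.g just outside at 99.4. At the bound of 4 times, Si023070m.g lay just inside at 4.02 times and Si040305m.g just outside at 3.94. Si023031m.g was also the gene just inside the bound of 20 times, at 19.6, and Si027209m.g lay just outside at 20.01. Of the genes with at least 100 FPKM in the root, 105 lay at or above 20 times, and 382 were highest in the root but by under 4 times.

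**Figure D1:**
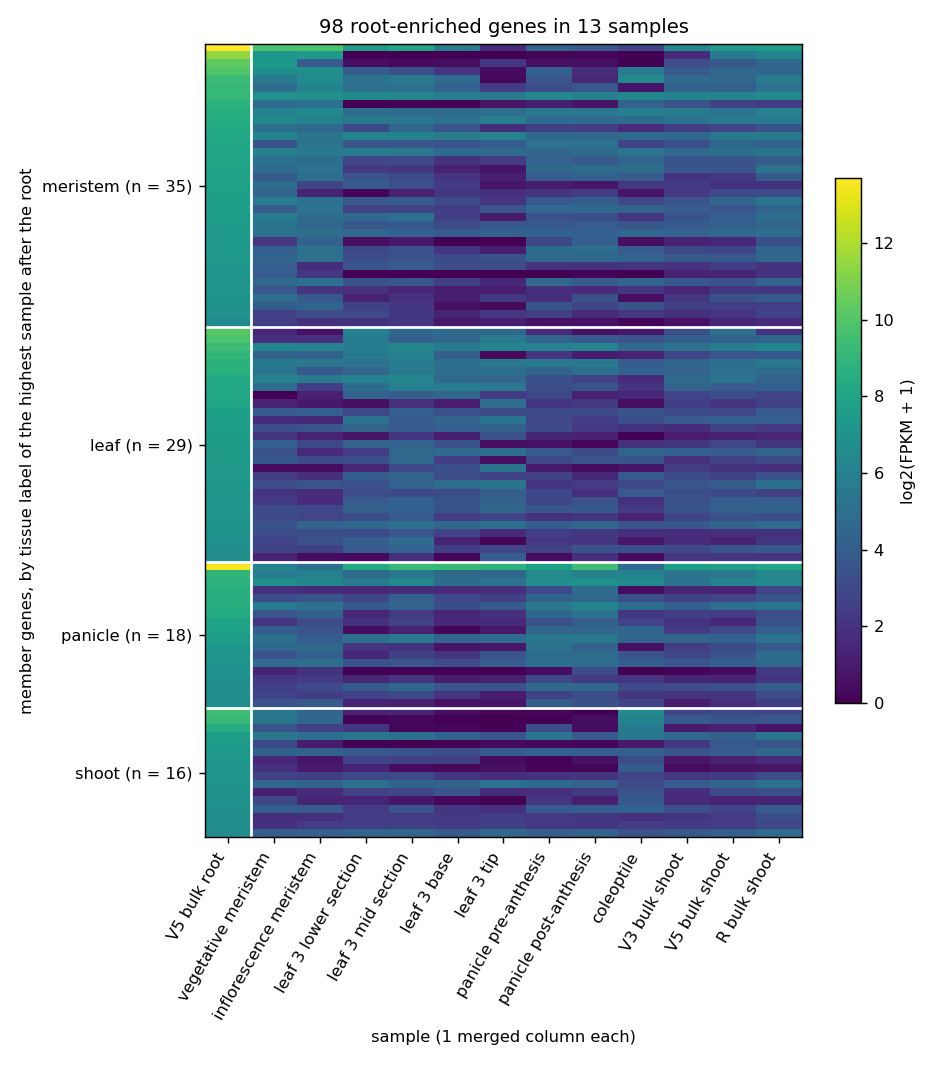
Level of each of the 98 genes (rows) in the 13 samples (columns) as log2(FPKM + 1), with the root at the left and the genes grouped by the tissue label of their highest sample after the root. The root column is the brightest in every row by the choice of genes, while dark cells at 0 or near it are scattered over the leaf, panicle and coleoptile columns.

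Si013096m.g was the most abundant of the set and the gene ranked 3 among all genes of the root, at 13215 FPKM. Its next levels were 903 FPKM in both meristems, which tied. Within leaf 3 it reached 260.4 FPKM in the mid and 180.0 in the lower section. It was at 186 FPKM in the R, 159.9 in the V5 and 80.0 in the V3 bulk shoot, at 56.3 in the leaf base, at 21.5 and 14.5 in the panicle before and after anthesis, at 6.31 in the coleoptile and at 2.36 in the leaf tip. The gene was thus highest in the root, followed by both meristems, and had its minimum at the tip of leaf 3. The mid and lower sections of that leaf and the R and V5 bulk shoots lay between 159.9 and 260.4 FPKM.

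Si027015m.g, ranked 5 in the root at 11665 FPKM, had another distribution above ground. It stood at 718 FPKM in the panicle after anthesis and 217 before it, and at 625, 579, 464 and 329.8 in the mid section, base, tip and lower section of leaf 3. The bulk shoots had 220.3 (V3), 231 (V5) and 287 FPKM (R), the vegetative and inflorescence meristems 66.2 and 34.0, and the coleoptile 26.1. Its lowest levels were therefore in the meristems and the coleoptile, and it was the most abundant of the 98 genes in all 4 leaf parts, both panicles and the 3 bulk shoots.

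Si011513m.g reached 2875 FPKM in the root, with 166 and 143 in the inflorescence and vegetative meristems. The R, V5 and V3 bulk shoots had 75.6, 46.5 and 2.34 FPKM. Leaf, panicle and coleoptile samples were all under 0.2 FPKM, with the lower section and the base of leaf 3 listed at 0. Si040056m.g, at 1268 FPKM in the root, was the most uneven of the set above ground, with a coefficient of variation of 2.43 over the 12 other samples. It had 163 FPKM in the vegetative meristem, 23.3 in the R, 13.0 in the V5 and 8.25 in the V3 bulk shoot and 14.1 in the inflorescence meristem, at 3.47 in the leaf tip, and under 0.5 in the 6 samples that remain.

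Evenness above ground varied widely among the 98 genes. The coefficient of variation of FPKM over the 12 other samples had a median of 0.727, and was under 0.5 in 27 genes and above 1 in 28. The same median was 1.15 for the 105 genes at 20 times or more and 0.548 for the 382 genes under 4 times. Outside the root those 105 genes had median levels of only 0.102 (leaf base) to 1.11 FPKM (vegetative meristem). The sets were thus not compared at like levels. In the 12 samples 62 of the 98 genes reached 1 FPKM throughout and 24 reached 5 FPKM throughout, while 9 reached 5 FPKM in a single sample and 7 were listed at 0 in at least 1. The most even gene was Si036411m.g, which had 108 FPKM in the root and from 2.73 (vegetative meristem) to 6.57 FPKM (R bulk shoot) elsewhere, with a coefficient of variation of 0.228.

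As a description of these genes, "shared with shoot" held only in part. In the V5 bulk shoot, harvested at the same age as the root, 69 of the 98 genes reached 5 FPKM, and the root level was from 6.48 to 392 times the shoot level with a median of 27.3. In 57 genes the root exceeded this shoot by 20 times or more. The rule used this shoot and holds the ratio to at least 4. Neither count was made over all genes, so neither sets the 98 apart. The highest sample after the root carried the shoot label for 16 genes (16.3%), near the 14.6% of all 1051 genes with at least 100 FPKM in the root. It was the coleoptile for 9, the R bulk shoot for 6 and the V5 bulk shoot for 1. The V3 bulk shoot came first for 0 of the 98 genes and for 1 of the 1051. This count by label does not measure sharing with the shoot, as leaf parts, meristems and panicles also grow above ground. A meristem was the highest for 35 genes, a part of leaf 3 for 29 and a panicle for 18.

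That order depended on the scaling. After median-ratio rescaling, which equalises the samples over 9792 genes expressed in all of them, the leaf parts were highest for 44 of the 98 genes, the meristems for 25, the panicles for 16 and the shoot-labelled samples for 13. With every sample scaled to the same sum the leaf parts were highest for 35 genes and the meristems for 31. The leaf share was above that of all 1051 genes with at least 100 FPKM in the root under each scaling, at 29.6% against 14.2% as deposited, 44.9% against 21.6% after median-ratio rescaling and 35.7% against 16.5% with equal sums. Among the 105 genes at 20 times or more, the leaf share was 23.8% as deposited, closer to that of the 98 genes, and among the 382 genes under 4 times it was 13.9%. The rule used the level of this highest sample, so the shares are not independent of the choice of genes. The 98 genes were chosen on the values as deposited. After median-ratio rescaling 86 of them still met the rule, and with equal sums 70 did. No test was made of these differences, and the number of samples differs between the tissue labels (4 leaf, 4 shoot, 2 meristem and 2 panicle).

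**Figure D2:**
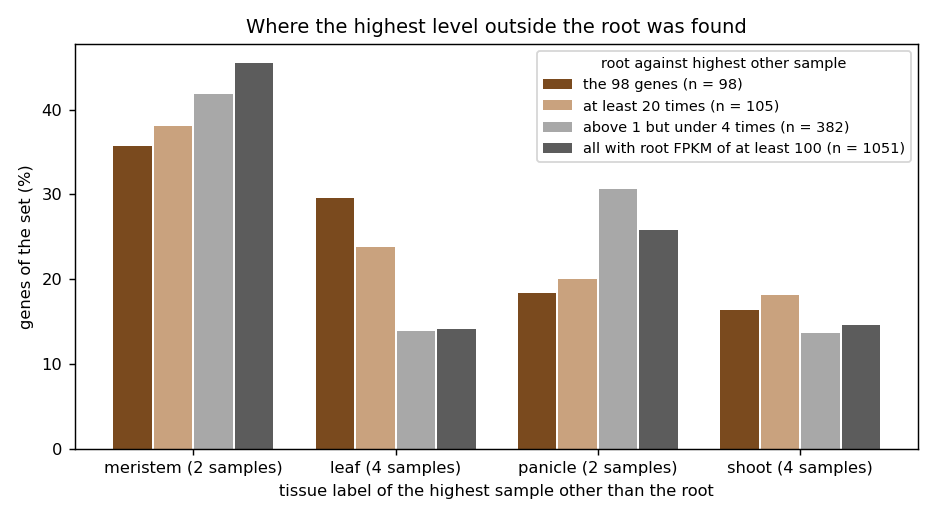
Percentage of genes whose highest sample other than the root carried each tissue label, as deposited, for the 98 genes and 3 other sets of genes with a root FPKM of at least 100. Leaf parts came first for 29.6% of the 98 genes and 14.2% of all 1051 genes, and meristems for 35.7% and 45.5%; after median-ratio rescaling the leaf parts passed the meristems among the 98.

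Sample by sample, the 98 genes had their highest median level above ground in the vegetative meristem (15.0 FPKM), the R bulk shoot (14.0) and the inflorescence meristem (13.6). Medians were lower in the mid section of leaf 3 (11.95 FPKM), the V5 bulk shoot (9.93), the panicle after anthesis (9.41), the coleoptile (9.06), the panicle before anthesis (8.75) and the lower leaf section (8.58). The V3 bulk shoot (7.61 FPKM), the leaf base (6.39) and the leaf tip (4.56) came last. After median-ratio rescaling the V3 bulk shoot (8.94 FPKM) and the leaf base (9.27) stood above the panicles after (8.34) and before anthesis (7.95). With equal sums the V3 bulk shoot (7.78 FPKM) and the leaf base (7.10) were again just above the tip. The leaf tip was also last after median-ratio rescaling (5.73 FPKM) and with equal sums (5.07), whereas the first place went to the mid leaf section (12.6) and the R bulk shoot (15.3) respectively. Of the 98 genes, 96 reached 1 FPKM in each of the vegetative meristem, V5 bulk shoot and R bulk shoot, against 74 in the leaf tip. As deposited, without rescaling, the lowest of the 12 samples was the leaf tip for 24 genes, the leaf base for 22 and the coleoptile for 19. None of these medians and counts was set beside all genes, so a low leaf tip is not shown to be particular to the 98.

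**Figure D3:**
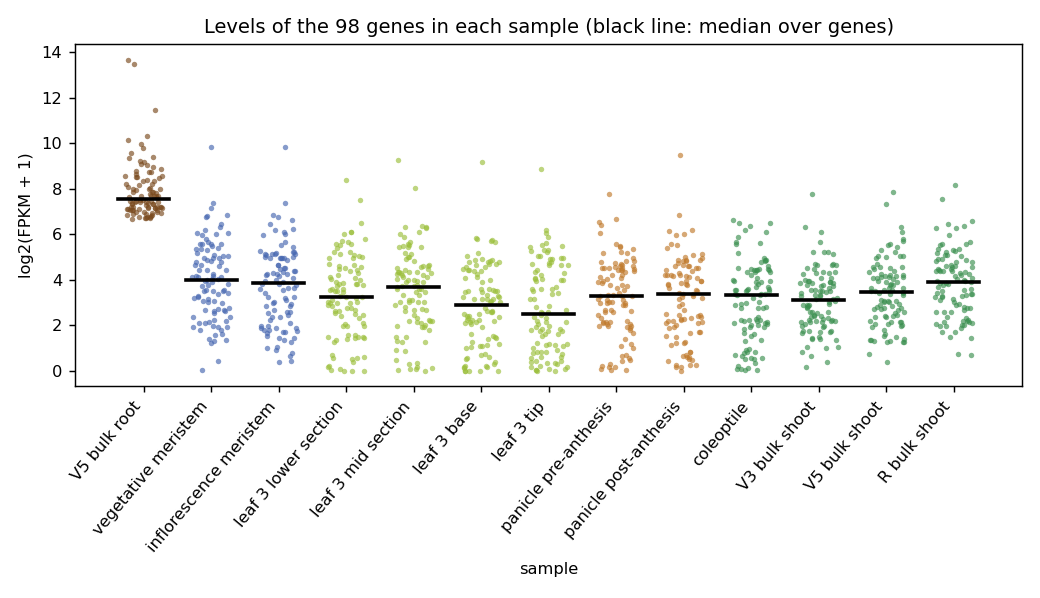
Level of each of the 98 genes in each sample as log2(FPKM + 1), 1 point per gene, with the median as a black line and colours by tissue label. The root median corresponds to 188 FPKM; the medians above ground run from 4.56 FPKM in the leaf tip to 15.0 in the vegetative meristem.

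Among the 35 genes with a meristem as the highest sample after the root, 20 had the vegetative and 15 the inflorescence meristem, counting the tie of Si013096m.g with the first. For 13 of the 98 genes the 2 meristems were the 2 highest samples after the root. This was not counted for other genes. As deposited, a meristem came first for 45.5% of all 1051 genes with at least 100 FPKM in the root, against 35.7% of the 98. Si003519m.g was one of the 13, with 995 FPKM in the root, 110.4 and 106 in the vegetative and inflorescence meristems, and 49.6 in the coleoptile. It was at 22.8, 21.5 and 13.3 FPKM in the V5, R and V3 bulk shoots, at 17.6 and 2.29 in the panicle before and after anthesis, and at 16.03, 9.06, 3.29 and 0.320 in the lower section, mid section, base and tip of leaf 3. Within leaf 3 it was thus highest in the lower section and lowest in the tip.

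The vegetative meristem was compared with the V3 bulk shoot of the same age. The rule did not use this difference, but it did use the highest level outside the root. That level was in the vegetative meristem for 20 of the 98 genes and in the V3 bulk shoot for 0. The calls are therefore not independent of the choice of genes. Here and below, a gene counted as higher or lower where log2(FPKM + 1) differed by 2 or more and the larger level was 5 FPKM or more. Of the 98 genes 84 reached that level in either sample, 17 were called higher in the meristem and 3 lower. Over all 11100 genes at that level 2.95% were called higher and 6.34% lower. The median difference of the 98 genes was 0.91 on the log2(FPKM + 1) scale, against 0.79 for all 1051 genes of at least 100 FPKM in the root. Median-ratio rescaling, which changed FPKM in the meristem by -0.57 log2 relative to the shoot, left 9 of the 98 higher and 5 lower, with a median of 0.42.

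The largest differences were those of Si011513m.g (143 FPKM against 2.34 in the V3 bulk shoot, a log2 difference of 5.43) and Si040056m.g (163 and 8.25 FPKM, 4.15). Of the 17 genes 13 had a meristem as their highest sample after the root, which rests in part on the same meristem levels as the calls. In the other direction stood Si024975m.g and Si018685m.g. Si024975m.g had 0.0210 FPKM in this meristem and 5.77 in the V3 bulk shoot, a log2 difference of -2.73, and was the only gene of the set with the leaf base as its highest sample after the root (20.7 FPKM, against 287 in the root). Si018685m.g was at 2.73 and 15.8 FPKM, a log2 difference of -2.17.

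Between the 2 meristems 1 gene was called higher in the inflorescence meristem and 6 lower, where over all 11579 genes 0.933% were higher and 1.29% lower. Of the 98 genes 79 reached 5 FPKM in either meristem, and their median difference over all 98 was -0.17. Si040056m.g had 14.1 FPKM in the inflorescence and 163 in the vegetative meristem, and Si014188m.g at 1.71 and 20.9, log2 differences of -3.44 and -3.01. The gene called higher was Si033213m.g, at 18.4 FPKM against 3.56, a log2 difference of 2.09. After median-ratio rescaling 5 genes were lower and 0 higher, as this gene no longer passed.

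The 29 genes with a leaf part as the highest sample after the root divided into 13 for the mid section, 11 for the tip, 4 for the lower section and 1 for the base. Si018941m.g, at 656 FPKM in the root, tied between the mid section and the vegetative meristem at 78.3 FPKM. It was even above ground, between 22.1 FPKM in the coleoptile and this tie, with a coefficient of variation of 0.297. Si011196m.g was uneven, at 1143 FPKM in the root, 68.1 in the lower section, 27.2 in the base, 25.2 in the tip and 23.6 in the mid section of leaf 3. It was at 32.4, 8.85 and 3.32 FPKM in the V5, V3 and R bulk shoots and under 2.2 in the meristems, panicles and coleoptile.

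Along leaf 3, the tip was set against the lower section, which was cut below the ligule of the second leaf. Of the 98 genes 71 reached 5 FPKM in either part, and 6 were called higher in the tip and 13 lower. Over all 9839 genes 2.92% were higher and 10.4% lower. Of the 13 lower genes 9 were under 1 FPKM in the tip, 8 had a meristem and 4 a leaf part as the highest sample after the root, and 5 were also called lower when the tip was set against the base. The median difference over the 98 genes was -0.27, against -0.18 for the 1051 genes of at least 100 FPKM in the root. Median-ratio rescaling, which changed FPKM in the tip by 0.24 log2 relative to the lower section, gave 7 higher and 13 lower.

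Si013096m.g was at 2.36 FPKM in the tip and 180.0 in the lower section, a log2 difference of -5.75. Si003381m.g had 536 FPKM in the root and, in leaf 3, 63.9 in the mid section, 47.2 in the lower section, 16.4 in the base and 0.257 in the tip, where the log2 difference from the lower section was -5.26. Its levels elsewhere lay between 1.17 FPKM in the panicle after anthesis and 20.6 in the vegetative meristem. Both genes were thus at their minimum in the leaf tip and at their maximum in the root.

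The opposite order along the leaf was found for Si037315m.g and Si034824m.g. Si037315m.g had 269.6 FPKM in the root and 28.9 in the tip, against 2.89 in the mid section, 1.14 in the base and 0.464 in the lower section, with 0.414 to 5.28 in all samples outside leaf 3 and the root. Its log2 difference between tip and lower section was 4.35. Si034824m.g had 169 FPKM in the root, then 39.2, 9.20, 7.17 and 1.83 in the tip, base, mid and lower sections, a log2 difference of 3.83. Of the 6 genes called higher in the tip, 5 had the tip as their highest sample after the root, which rests on the same tip levels.

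**Figure D4:**
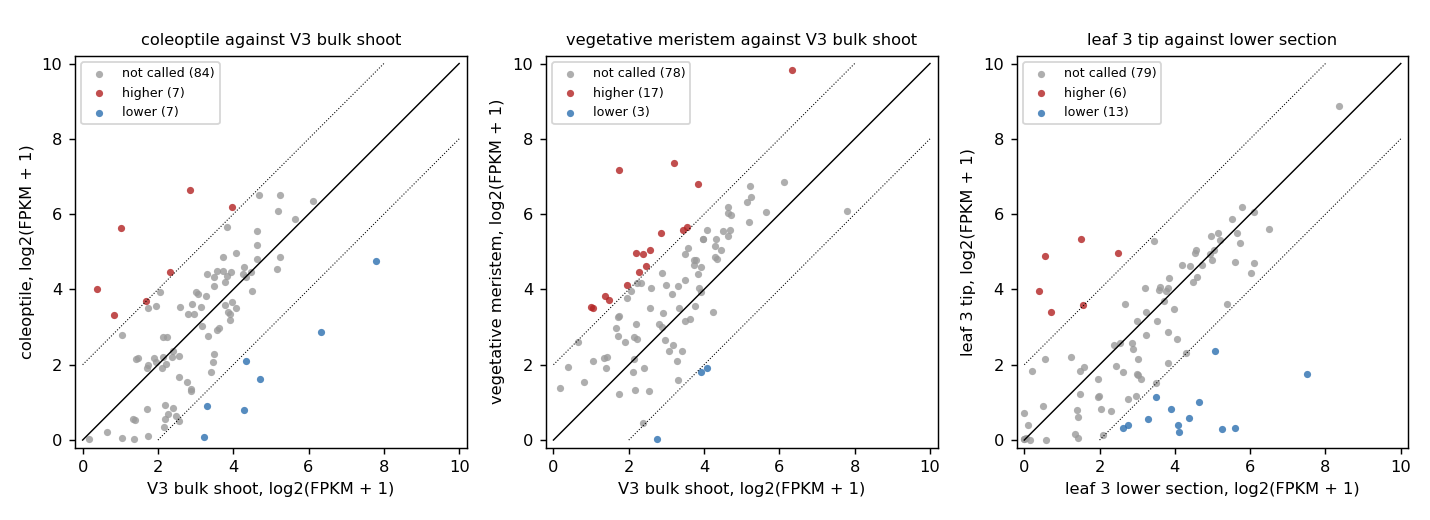
Levels of the 98 genes in 3 pairs of samples as log2(FPKM + 1), with the line of equality (solid) and a difference of 2 (dotted), and with genes called higher or lower in the sample on the vertical axis in red and blue. The vegetative meristem has 17 genes above and 3 below the V3 bulk shoot (9 and 5 after median-ratio rescaling), the leaf tip 6 above and 13 below the lower section, and the coleoptile 7 on each side of the V3 bulk shoot.

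Among the 16 genes with a shoot-labelled sample as the highest after the root, the 9 of the coleoptile included Si011504m.g. This gene had 759 FPKM in the root, 98.0 in the coleoptile, 43.9 and 21.0 in the vegetative and inflorescence meristems and 7.00, 6.41 and 6.26 in the V5, R and V3 bulk shoots. Leaf parts were between 0.125 and 1.77 FPKM, and the panicle was at 0.125 before anthesis and listed at 0 after it. Si027917m.g was the gene with the V5 bulk shoot first, at 183 FPKM in the root, 12.5 in that shoot, 11.6 at stage R, 7.40 in the vegetative meristem, and under 4 in each of the other samples. Si034319m.g had the R bulk shoot first, at 33.3 FPKM against 136 in the root, with the leaf tip and the lower section close behind at 32.4 and 31.9 and the lowest level in the coleoptile at 8.19.

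The coleoptile was compared with the V3 bulk shoot, which it precedes by 7 days. Of the 98 genes 70 reached 5 FPKM in either sample, 7 were called higher in the coleoptile and 7 lower, and over all 9656 genes 2.23% were higher and 4.64% lower. The median difference was 0.04 as deposited and -0.07 after median-ratio rescaling, which gave 6 higher and 8 lower. Si027159m.g had 48.2 FPKM in the coleoptile against 1.01 in the V3 shoot (root 361), a log2 difference of 4.61, and Si011504m.g at 98.0 and 6.26, a difference of 3.77. Of the 7 higher genes 6 had the coleoptile as their highest sample after the root, which rests on the same coleoptile levels. Si038347m.g was at 0.729 and 18.6 FPKM (root 575), a log2 difference of -3.50, and Si013096m.g at 6.31 and 80.0, a difference of -3.47. This comparison and that of the vegetative meristem share the V3 bulk shoot.

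Bulk shoots of stage R were compared with those of V5. Of the 80 genes at 5 FPKM in either, 0 were called higher at R and 1 lower, and over all 11542 genes 0.988% were higher and 0.0866% lower. The gene was Si011196m.g, at 3.32 FPKM at R and 32.4 at V5, a log2 difference of -2.95. These calls were about as rare among the 98 genes as among all genes, and as deposited 62 of the 80 were above 0 in R minus V5. The median difference of the 98 genes was 0.45 as deposited, but median-ratio rescaling, which changed FPKM at R by -0.50 log2 relative to V5, left a median of -0.00043.

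Among the 18 genes with a panicle as the highest sample after the root, 11 had the panicle after anthesis and 7 the panicle before it. Si027098m.g had the highest level of the latter, at 90.8 FPKM before and 63.4 after anthesis against 490.1 in the root. It was at 81.1, 43.0 and 35.8 FPKM in the R, V5 and V3 bulk shoots, 67.1 in the coleoptile, 60.8 and 53.9 in the inflorescence and vegetative meristems, and 23.9 to 43.9 in leaf 3. Its levels above ground thus lay close together, with a coefficient of variation of 0.434.

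Between the 2 panicles 1 gene was called higher after anthesis and 3 lower, of 66 at 5 FPKM in either, where over all 10572 genes 2.00% were higher and 2.08% lower. Si035505m.g had 7.94 FPKM after anthesis against 0.385 before it (root 122), a log2 difference of 2.69. Si027159m.g was at 0.385 and 8.71 FPKM, a difference of -2.81, and Si003519m.g at 2.29 and 17.6, a difference of -2.50. The median difference of the 98 genes was -0.01. Over the 6 comparisons 46 of the 98 genes were called at least once, 5 of them in 3 comparisons, and 52 in none. Of all 14279 genes at 5 FPKM in any of the samples compared 19.6% were called at least once, and of the 382 genes highest in the root by under 4 times 14.9% were. Of the 105 genes at 20 times or more, 34 reached 5 FPKM there and 20 were called. All 98 genes reached 5 FPKM there, and the rule used their highest level outside the root. The calls are thus not independent of the choice of genes, and the sets differ in level outside the root. These shares were not tested against each other.

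For the comparison of root and shoot at V5, on which the choice of genes rests, all 98 genes were higher in the root by the same size rule, and over all 12099 genes 16.7% were higher and 17.5% lower. Nothing is read from that count.

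Start site offsets, which the rule did not use, were deposited for 62 of the 98 genes (63.3%), against 780 of the 1051 genes of at least 100 FPKM in the root (74.2%) and 4900 of all genes (13.8%). An offset is a signed number of nt per gene, and the labels do not state its sign convention. The 62 offsets had a median of -8 nt and quartiles of -11 and 29.75 nt, with 35 negative, 2 at 0 and 25 positive. The median was -7 nt over all 4900 genes, 0 nt over the 780 and -11.5 nt over the 58 with an offset among the 105 genes at 20 times or more. Negative offsets made up 56.5% of the 62, 61.1% of the 4900, 49.5% of the 780 and 81.0% of the 58. These are counts over genes, which are not replicates, and no test was made.

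Offsets from -20 to -1 nt were held by 27 of the 62 genes (43.5%), against 36.3% of the 4900 and 39.4% of the 780. Si013096m.g had an offset of 85 nt, Si011513m.g of -11 nt and Si040056m.g of -33 nt. The largest was 263 nt, for Si027015m.g, and 5 genes exceeded 100 nt. The lowest was -193 nt, for Si023769m.g, a gene at 181 FPKM in the root, 9.56 in the leaf tip and under 3.5 in all other samples. By tissue of the highest sample after the root, the median offset was -8 nt for meristems (23 genes with an offset), -8 nt for leaf parts (20), 27 nt for panicles (13) and -13 nt for shoot-labelled samples (6).

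**Figure D5:**
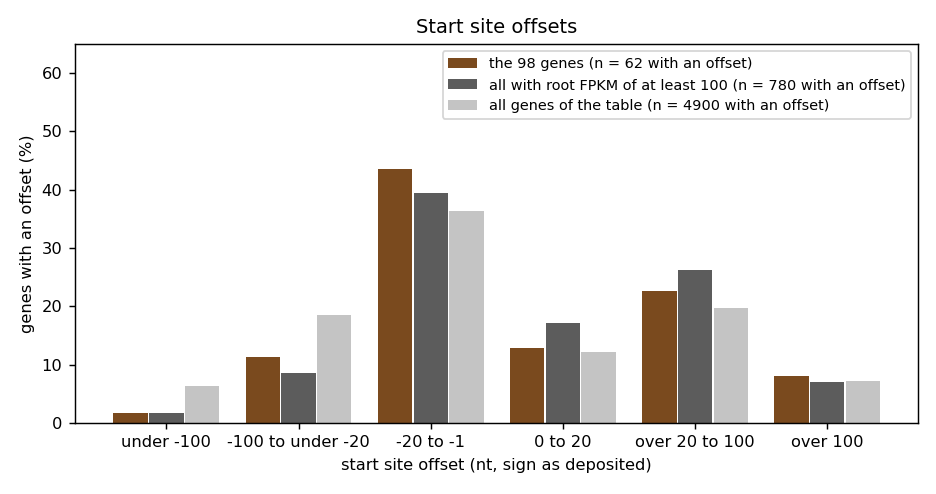
Percentage of genes with a deposited start site offset in each range of offsets (nt, sign as deposited), for the 98 genes (62 with an offset), all genes with a root FPKM of at least 100 (780) and all genes of the table (4900). All 3 sets have their largest share from -20 to -1 nt, with 43.5%, 39.4% and 36.3%.

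More than 1 annotated transcript was listed for 22 of the 98 genes (22.4%), against 9.96% of all genes. The share was 25.0% of the 1051 genes and 2.86% of the 105 genes at 20 times or more. The transcript second in mean level lay within the same bounds of 4 to 20 times in 21 of the 22, and in 21 it had the same highest sample after the root. For Si003519m.g the 2 transcripts were at 995 and 988 FPKM in the root, each 9.01 times the vegetative meristem. For Si018685m.g they were at 897 and 860 FPKM, 18.1 and 16.5 times the lower section of leaf 3. The exception to the bounds was Si031414m.g, at 4.03 and 3.999 times the panicle after anthesis. In 17 of the 22 genes the 2 transcripts differed by less than 0.1 log2 in every sample, so they do not add independent measurements.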

How the data were processed

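The authors deposited 1 table of log2 values per annotated transcript, with 1 column for each of the 13 samples and 2 decimals, and 1 list of start site offsets for 4900 genes. Per the labels' protocols, polyadenylated RNA was made into cDNA with the SMARTer kit and sequenced in pairs of 100 nt. Per the submitters' processing notes, STAR and DESeq2 were among the tools, and their roles are unstated. How replicates were merged, how offsets were made, and which genome build and annotation were used is not given in these sources. Whether the gene models are those of Setaria viridis itself is therefore unknown here. FPKM was taken as 2 to the power of the deposited log2 value, minus 1, which gives sums of 884742 to 1110012 per sample. The base was inferred from these sums. They vary too much to show the added 1, which was assumed because the lowest deposited value is 0.

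Of 40599 transcripts, the one with the highest mean FPKM stood for each of 35471 genes. FPKM scales with the total of each sample, so very abundant genes lower all others there, and adding 1 understates the differences of low genes. Genes named are the 4 highest in the root, those next to each bound, the highest for each sample that came first after the root, the 2 largest calls each way per comparison, the extremes of variation and offset, and 2 with several transcripts. Si031414m.g was chosen after its values were seen. The members, comparisons and rules were chosen with earlier results of these data known. Alternatives covered scaling, pseudocount, minimum level, size of difference, transcript choice and the bounds. Python 3.11.15, pandas 2.3.3, numpy 2.4.6 and matplotlib 3.10.9 were used.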

Additional observations from a re-analysis of the deposited data

How the results depend on the processing

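The set held 152 genes with a root bound of 50 FPKM and 47 with 200, against 98. Its size was 101 after median-ratio rescaling (86 of the 98 kept), 74 with equal sums (70 kept), 102 with transcripts summed, 102 with FPKM as 2 to the power of the value, 121 from 3 times and 71 from 5 times. Leaving any single sample other than the root out of the rule, chosen after seeing the data, gave 94 to 104 genes. With the bulk shoots left out, 9 genes in place of 16 had a shoot-labelled sample first after the root. At a log2 difference of at least 1, calls went from 14 to 29 (coleoptile against V3 bulk shoot), 20 to 50 (vegetative meristem against it), 19 to 32 (leaf tip against lower section), 7 to 22 (meristems), 1 to 17 (R against V5 bulk shoot) and 4 to 12 (panicles), as a smaller difference passes more genes. With a pseudocount of 0.1 the R comparison had 3 calls, 2 of them higher. The median offset was 14.5 nt in absolute value. All other alternatives run left these counts within 1.5 times. No paired analysis was possible because each sample is 1 merged column. Values near 0 are limited by the 2 decimals of the file.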
